A study of Mus musculus with 8 samples.

Results

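The genes described here are those of the lipoprotein lipase (LPL) system and the fatty acid transporter CD36: Lpl, Lmf1, Gpihbp1, Angptl4, Lrp1, Vldlr and Cd36. They were chosen by gene name, and all 7 were found among the 54532 genes of the table and passed the filter on low values. The RNA was taken from the brown adipose tissue (fat that produces heat) of 4 mice labelled TG (CLCF1-ATG) and 4 mice labelled WT. CLCF1, a gp130 cytokine related to interleukin-6, is the transgene's product, and the question was which brown fat transcripts differ between transgenic and wild-type mice. The labels give neither the promoter of the transgene nor the age, sex, strain or housing temperature of the mice, and no treatment.

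LPL is made by adipocytes and muscle cells and frees fatty acids from the triglycerides of circulating lipoproteins. LMF1 is needed for the enzyme to fold in the endoplasmic reticulum, GPIHBP1 carries it across capillary endothelium and holds it in the vessel lumen, and ANGPTL4 inactivates it. CD36 takes up the freed fatty acids, while LRP1 and VLDLR bind lipoprotein particles and their remnants. Brown fat is known for clearing large amounts of triglyceride from blood through this route.

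Levels are in FPKM, in which fragments are divided by the length of the gene and by a factor for the library. A log2 change is the TG mean minus the WT mean of log2(FPKM + 1), so changes of low genes come out too small. Reads recovered from the FPKM numbered 18494022 to 20183840 per TG library and 13734231 to 15751302 per WT library, of which the mitochondrial chromosome took 6.09% to 7.34% in TG and 24.1% to 37.5% in WT. Clcf1 itself stood at 78.7 to 89.9 FPKM in TG and 0.434 to 3.40 FPKM in WT, so all 8 libraries followed their labels. The brown fat marker Ucp1 was present in both groups, at 82.8 ± 45.3 FPKM in TG and 1420.4 ± 371 FPKM in WT (SD, n = 4 each), and the shared adipocyte markers summed to 18789 to 28785 FPKM in TG and 5412 to 7596 FPKM in WT. Of that sum the complement factor D gene Cfd alone averaged 18445 FPKM in TG and 3702 FPKM in WT. Skeletal muscle markers were high in TG 5 (1379 FPKM summed over 7 genes) and WT 2 (2449.8 FPKM), against at most 226 and 222 FPKM in the other libraries of TG and WT. Member and list counts that change when both are left out are given without them too.

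Lrp1 was the member with the largest difference, at 4.94 times its WT level in TG, and Cd36 stood at 1.43 times. Gpihbp1 was at 32.5% of its WT level, Lmf1 at 49.2% and Vldlr at 68.4%. Lpl itself and its inhibitor Angptl4 did not pass the test. With limma across all 12508 genes tested and an adjusted p of 0.05, 2 of the 7 rose, 3 fell and 2 did not pass, against 44.1% of all genes called, 22.3% higher and 21.8% lower. The deposited FPKM ranges of the groups did not overlap for 4 members, Lrp1, Cd36, Gpihbp1 and Lmf1, against 42.6% of all genes. The median log2 change of the 7 was -0.41 and that of all genes 0.01. Without TG 5 and WT 2, 1 member rose (Lrp1), 2 fell (Gpihbp1 and Lmf1) and 4 did not pass. Of all genes, 32.7% were then called, 16.1% higher and 16.6% lower.

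**Figure D1:**
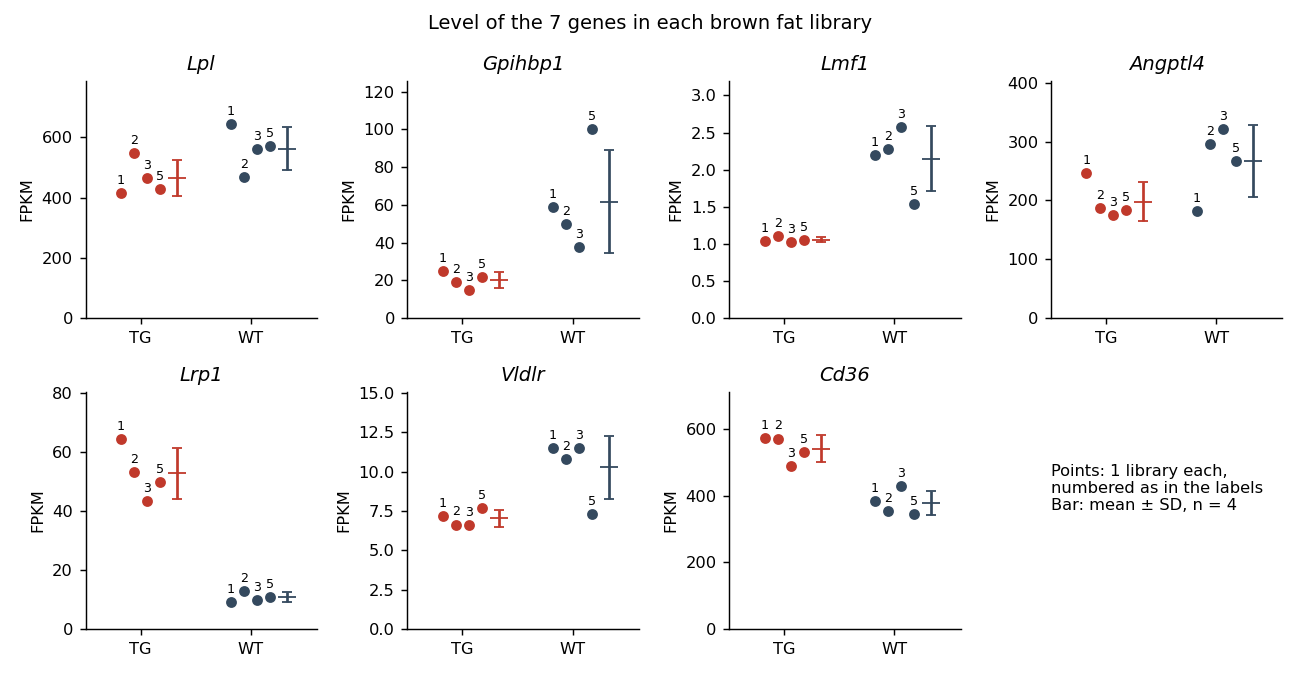
FPKM of the 7 genes (vertical axes, linear from 0) in each of the 4 TG and 4 WT libraries, numbered as in the labels, with the mean ± SD beside each group. The groups are apart for Gpihbp1, Lmf1, Lrp1 and Cd36, and overlap for Lpl, Angptl4 and Vldlr.

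Lpl, the enzyme (ENSMUSG00000015568, mm10 chromosome 8, 68880491 to 68907448, plus strand), was among the most abundant of the 7 in both groups. In TG 1, 2, 3 and 5 it stood at 414, 549, 467 and 429 FPKM, and in WT 1, 2, 3 and 5 at 644, 469.7, 562 and 572 FPKM. TG 2 lay above WT 2, so the ranges overlapped, although the other 3 TG libraries lay below every WT library. The means were 465 ± 60.2 FPKM in TG and 562 ± 71.6 FPKM in WT (SD, n = 4 each), with a log2 change of -0.27 (95% interval -0.59 to 0.05, limma adjusted p = 0.152). The direction depended on how libraries were scaled. Divided by all recovered reads, Lpl averaged 544 ± 57.5 in TG and 487 ± 39.1 in WT (SD, n = 4 each, FPKM recomputed on that total), with a log2 change of 0.16 (limma adjusted p = 0.304). Quantile normalisation gave a log2 change of 0.51 (limma adjusted p = 0.00665), and the adjusted p ran from 0.00665 to 0.333 over the 22 alternatives.

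Lmf1, the folding factor (ENSMUSG00000002279, mm10 chromosome 17, 25579174 to 25662826, plus strand), was the least abundant member. It stood at 1.04, 1.10, 1.02 and 1.06 FPKM in TG 1, 2, 3 and 5, and at 2.19, 2.28, 2.57 and 1.54 FPKM in WT 1, 2, 3 and 5. All TG values lay below all WT values, and the TG values were close together, with a coefficient of variation of 3.10% in TG and 20.4% in WT. With division by all recovered reads the ranges overlapped, at 1.16 to 1.27 in TG and 1.26 to 2.23 in WT. The log2 change was then -0.35 (limma adjusted p = 0.0448). Lmf1 fell by 0.60 on the log2 scale (SE 0.121, limma adjusted p = 0.00311), and it kept its call in each of the 21 alternatives in which it could be tested, at log2 changes of -0.99 to -0.35. Between 314 and 335 reads per TG library and 237 and 461 reads per WT library lay behind these values.

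Gpihbp1, the capillary anchor of LPL (ENSMUSG00000022579, mm10 chromosome 15, 75596628 to 75599481, plus strand), stood at 24.8, 18.9, 14.9 and 21.6 FPKM in TG 1, 2, 3 and 5. In WT 1, 2, 3 and 5 it stood at 58.8, 50.1, 37.7 and 100.3 FPKM. Every TG library was below every WT library, and WT 5 was far above the other WT libraries. Gpihbp1 fell by 1.51 on the log2 scale (SE 0.272, limma adjusted p = 0.00175), and it was called lower in all 22 alternatives, at log2 changes of -1.71 to -1.09.

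Markers of the capillary and vascular endothelium, where Gpihbp1 is made, moved with it. A total of 18 of the 19 markers fell, 0 rose and Meox2 did not pass (log2 change -0.69, adjusted p = 0.0965). Their median log2 change was -1.65, beside 0.01 for all genes, and 18 also fell without TG 5 and WT 2 and with division by all recovered reads. The adhesion gene Pecam1 fell by 1.80 on the log2 scale, the tight junction gene Cldn5 by 2.76 and the transcription factor gene Erg by 1.45. The 19 markers summed to 596 to 629 FPKM in TG and 1275 to 1737 FPKM in WT, and none of the 19 was at 0 in all libraries. Within a library, Gpihbp1 stood at 0.0394, 0.0301, 0.0249 and 0.0358 times that sum in TG 1, 2, 3 and 5, and 0.0438, 0.0393, 0.0275 and 0.0578 in WT 1, 2, 3 and 5. These ranges overlapped, and the log2 difference was -0.34 (SE 0.265), with p = 0.229 by exact permutation of the 70 assignments of labels, two-sided. This outcome rests on Rgcc, a cell cycle regulator gene that made up 70.8% to 84.4% of the sum in TG and 41.7% to 65.5% in WT. Over the other 18 markers, a comparison added after seeing the data, the ratio was 0.135, 0.148, 0.160 and 0.144 in TG 1, 2, 3 and 5 and 0.110, 0.101, 0.0798 and 0.0991 in WT 1, 2, 3 and 5. Each TG ratio was then above each WT ratio (log2 difference 0.60, SE 0.111, exact permutation p = 0.0286, the smallest possible). Against the mean log2(FPKM + 1) of all 19 markers, each counted alike, the difference was 0.076 (SE 0.058, exact permutation p = 0.286). Whether Gpihbp1 fell more or less than the endothelial markers as a set therefore depends on how they are combined. In log2(FPKM + 1) the changes of low markers come out too small. By mean FPKM, with nothing added, Gpihbp1 stood at 32.5% of its WT level. Rgcc (59.2%), Meox2 (51.4%) and Tcf15 (32.6%) kept more. The other markers kept less, from 13.1% for Cldn5 to 31.6% for Emcn. Rgcc was at 475 ± 30.4 FPKM in TG and 803 ± 73.0 FPKM in WT (SD, n = 4 each) and fell by 0.75, and with quantile normalisation its log2 change was 0.095 and not called. Rgcc, Meox2, Tcf15 and Emcn were named after their values were seen. Of 7 tested markers of mural cells, which wrap capillaries, 5 fell, 1 rose and 1 did not pass (median log2 change -0.58), and 4 fell without TG 5 and WT 2. Among those that fell, Myh11 reached the filter of 0.5 FPKM only in WT. It stood at 0.255 to 0.397 FPKM in TG and 0.564 to 1.575 FPKM in WT, and was named after its values were seen. Blood cell markers were lower too. All 5 red blood cell markers fell (median -2.21), with sums of 1529 to 1901 FPKM in TG and 5110.0 to 12890 FPKM in WT. The 4 tested of 7 neutrophil markers fell (median -2.62), at sums of 4.22 to 26.9 FPKM in TG and 13.7 to 397 FPKM in WT. Without TG 5 and WT 2, 1 of them was called lower, at a median of -2.61. The share of all genes called lower then went from 21.8% to 16.6%. The part of blood or vessel content in the change of Gpihbp1 was not tested. In bulk tissue, fewer cells of a type and less RNA per cell cannot be told apart.

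**Figure D2:**
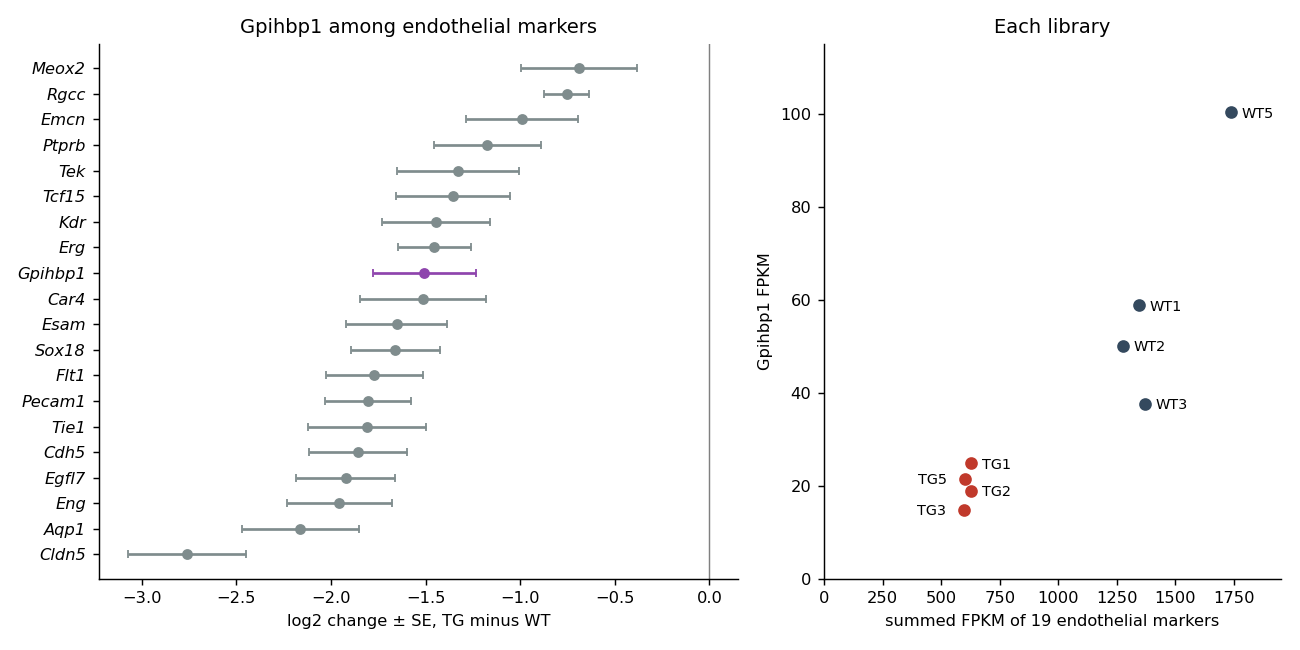
Left, log2 change ± SE (horizontal axis, TG minus WT) of Gpihbp1 in purple and 19 endothelial markers in grey, all below 0, with Gpihbp1 at -1.51 near the list's median of -1.65. Right, Gpihbp1 FPKM against the summed FPKM of the 19 markers in each TG (red) and WT (dark) library, where the TG libraries lie low on both axes and WT 5 is highest on both.

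Angptl4, the inhibitor (ENSMUSG00000002289, mm10 chromosome 17, 33773750 to 33781575, minus strand), stood at 247, 187, 175 and 183 FPKM in TG 1, 2, 3 and 5, and at 182, 296, 322 and 267 FPKM in WT 1, 2, 3 and 5. WT 1 lay among the TG libraries and TG 1 above the other TG libraries, so the ranges overlapped. The log2 change was -0.41 (95% interval -0.84 to 0.02, limma adjusted p = 0.111). WT 1 decided the outcome, since without WT 1 the log2 change was -0.58 and Angptl4 was called lower (limma adjusted p = 0.0149). Over the 22 alternatives its adjusted p lay between 0.0149 and 0.951. With division by all recovered reads the log2 change was 0.017 and with quantile normalisation 0.089, neither of them called.

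Lrp1, a large endocytic receptor for lipoprotein remnants and many other ligands (ENSMUSG00000040249, mm10 chromosome 10, 127538161 to 127621148, minus strand), stood at 64.3, 53.3, 43.5 and 49.9 FPKM in TG 1, 2, 3 and 5. In WT 1, 2, 3 and 5 it stood at 9.05, 12.9, 9.80 and 10.9 FPKM. The lowest TG library was far above the highest WT library. Lrp1 rose by 2.20 on the log2 scale (SE 0.146, limma adjusted p = 5.43e-06), which placed it at percentile 99.3 of the log2 changes of all genes tested. The change ran from 2.10 to 2.73 over the 22 alternatives and was called in each. An antisense gene inside Lrp1, Gm16217, had 12 reads over the TG libraries and 4 over the WT libraries, against 17620 to 27146 reads of Lrp1 per TG library and 1889 to 3084 per WT library.

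Lrp1 is also made by macrophages and fibroblasts, whose markers were measured beside it. Of 10 macrophage markers 5 rose, 0 fell and 5 did not pass (median log2 change 0.49), with a summed level of 385 to 470.2 FPKM in TG and 226 to 379 FPKM in WT. Without TG 5 and WT 2, 1 of the 10 rose, at a median log2 change of 0.33. Fewer libraries also lowered the share of all genes called higher, from 22.3% to 16.1%. With all libraries the mannose receptor gene Mrc1, 1 of the 10, rose by 1.07. Of 9 fibroblast and preadipocyte markers 4 rose, 1 fell and 4 did not pass (median 0.61), with sums of 645 to 806 FPKM in TG and 238 to 328 FPKM in WT. The matrix gene Dpt rose by 2.20 and the collagen gene Col3a1 by 1.43, while Pdgfra, a growth factor receptor gene of preadipocytes, fell by 0.53 (named after its value was seen). Of the 9, 3 rose and 0 fell without TG 5 and WT 2. Of 8 shared adipocyte markers 6 rose, 0 fell and 2 did not pass (median log2 change 1.04). The part of any of these cell types in the change of Lrp1 was not tested.

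The very low density lipoprotein receptor gene Vldlr (ENSMUSG00000024924, mm10 chromosome 19, 27216484 to 27254231, plus strand) went the other way. It stood at 7.19, 6.64, 6.59 and 7.71 FPKM in TG 1, 2, 3 and 5, and at 11.5, 10.8, 11.5 and 7.33 FPKM in WT 1, 2, 3 and 5. WT 5 lay within the TG range, while the other 3 WT libraries lay above all TG libraries. Vldlr fell by 0.47 on the log2 scale (SE 0.143, limma adjusted p = 0.0230). This call was lost in 10 of 22 alternatives. Among them were leaving out TG 2 (adjusted p = 0.0614), TG 3 (0.0602), WT 1 (0.0549), WT 2 (0.0568) or WT 3 (0.0560), and TG 5 and WT 2 together (0.0798). With division by all recovered reads the log2 change was -0.091 (adjusted p = 0.659), and the adjusted p ran from 0.000981 to 0.659 in all.

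Cd36, the fatty acid transporter (ENSMUSG00000002944, mm10 chromosome 5, 17781690 to 17888801, minus strand), stood at 574, 571, 489 and 529 FPKM in TG 1, 2, 3 and 5, and at 385, 353, 427 and 346 FPKM in WT 1, 2, 3 and 5. All TG libraries were above all WT libraries, and the spread was small in both groups, with coefficients of variation of 7.43% in TG and 9.83% in WT. Cd36 rose by 0.52 on the log2 scale (SE 0.121, limma adjusted p = 0.00683), with changes of 0.48 to 1.24 over the alternatives. Without TG 5 and WT 2 the log2 change was 0.50 and the call was lost (adjusted p = 0.0572, the highest over the alternatives). Cd36 is made by capillary endothelium, macrophages and muscle as well as adipocytes. Of 19 endothelial markers 18 fell, and of 8 shared adipocyte markers 6 rose, 0 fell and 2 did not pass (median log2 change 1.04). The 7 brown adipocyte markers all fell (median -3.73; 6 of 7 with division by all recovered reads), with sums of 622 to 1030.2 FPKM in TG and 6969 to 9853 FPKM in WT. The part of any of these cell types in the changes of Cd36, Lpl and Angptl4 was not tested.

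The sequences before the RefSeq starts of Lrp1 and Cd36, which rose, and Vldlr, which fell, are shown for comparison. They are the 250 bases before each start, from RefSeq on GRCm38.p6, 5′ to 3′ on the gene's strand, and the starts of Lrp1 and Vldlr are also the starts of the deposited genes. Vldlr has 2 RefSeq starts, and only the window of that one was searched. That of Cd36 lies 52905 bases inside the deposited gene. Capitals mark matches on either strand to TTCNNNGAA (bound by STAT factors, which act downstream of gp130 cytokines), AGGTCA (bound by nuclear receptors), ACGTG (bound by hypoxia-inducible factors) and GGGCGG (the GC box), none of which overlap here.
Lrp1 (chr10:127621149-127621398, minus strand): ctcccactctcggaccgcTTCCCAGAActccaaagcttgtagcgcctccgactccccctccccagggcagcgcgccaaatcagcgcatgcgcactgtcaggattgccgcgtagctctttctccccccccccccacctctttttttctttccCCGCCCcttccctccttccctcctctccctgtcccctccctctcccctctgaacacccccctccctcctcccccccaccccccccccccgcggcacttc
Cd36 (chr5:17835897-17836146, minus strand): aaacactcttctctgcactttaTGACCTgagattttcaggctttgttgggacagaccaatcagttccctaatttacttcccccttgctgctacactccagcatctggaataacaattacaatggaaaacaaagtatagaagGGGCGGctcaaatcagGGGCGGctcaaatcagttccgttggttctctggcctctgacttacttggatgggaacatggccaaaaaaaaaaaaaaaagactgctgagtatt
Vldlr (chr19:27216234-27216483, plus strand): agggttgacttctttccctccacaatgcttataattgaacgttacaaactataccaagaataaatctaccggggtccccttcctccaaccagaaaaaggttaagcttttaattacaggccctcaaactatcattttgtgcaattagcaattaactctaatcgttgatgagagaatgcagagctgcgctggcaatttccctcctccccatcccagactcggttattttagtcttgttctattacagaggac

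The Lrp1 window held 1 match to TTCNNNGAA, 232 to 224 bases before the start, and 1 GC box. The Cd36 window held 1 match to AGGTCA on the opposite strand, 228 to 223 bases before the start, and 2 GC boxes. No match to the 4 motifs was found in the Vldlr window, and that of Lmf1, not printed, held 1 GC box. Of all 32851 RefSeq promoter windows of that length, 7.02% held TTCNNNGAA, 14.0% AGGTCA, 16.6% ACGTG and 32.7% GGGCGG. RefSeq windows of Lpl, Gpihbp1 and Angptl4 are not shown.

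The log2 changes also depended on how the libraries were scaled. Total recovered reads were 0.822 to 0.883 times the factor behind the FPKM in TG libraries and 1.02 to 1.22 times in WT libraries, so the deposited FPKM differ from a division by total reads. Dividing by all recovered reads moved the median log2 change of all genes to 0.32, against 0.01 as deposited, and gave 5536 higher and 1442 lower genes, against 2788 and 2725. Relative to that median, the log2 changes of the members were 2.29 for Lrp1, 0.63 for Cd36, -0.16 for Lpl, -0.30 for Angptl4, -0.41 for Vldlr, -0.67 for Lmf1 and -1.41 for Gpihbp1. Divided by reads outside the mitochondrial chromosome instead, the log2 change of Lpl was -0.25, that of Vldlr -0.46 and that of Cd36 0.54, and the same members were called as with the deposited FPKM. The directions of Lrp1, Cd36, Lmf1, Gpihbp1 and Vldlr were the same under these 2 divisions, upper quartile scaling and quantile normalisation, while those of Lpl and Angptl4 were not.

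**Figure D3:**
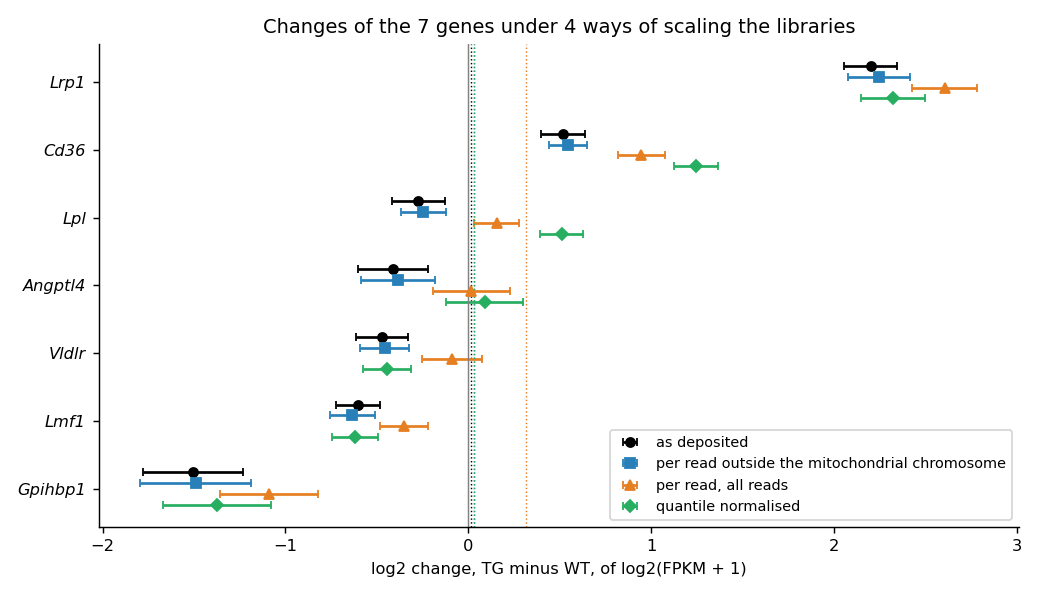
Log2 change ± SE (horizontal axis, TG minus WT) of the 7 genes under 4 scalings of the libraries, with a dotted line at the median of all genes for each. Lrp1 and Cd36 stay above 0 and Gpihbp1, Lmf1 and Vldlr below 0 under all 4, while Lpl lies at -0.27 as deposited and at 0.51 after quantile normalisation.

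Ratios of members within a library do not change when the whole library is divided by a factor, though quantile normalisation can change them. On the deposited FPKM, 5 ratios were compared with two-sided exact permutation tests over 70 assignments, whose smallest possible p is 0.0286. The Cd36 to Lpl ratio was 1.38, 1.04, 1.05 and 1.23 in TG 1, 2, 3 and 5 and 0.598, 0.752, 0.760 and 0.604 in WT 1, 2, 3 and 5, a log2 difference of 0.79 (SE 0.138, exact p = 0.0286, adjusted over the 5 ratios p = 0.0357). No TG ratio overlapped a WT ratio.

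The anchor and the folding factor were lower relative to the enzyme. The Gpihbp1 to Lpl ratio was 0.0318 to 0.0598 in TG and 0.0670 to 0.175 in WT (log2 difference -1.28, SE 0.362, exact p = 0.0286, adjusted p = 0.0357). The Lmf1 to Lpl ratio was 0.00201 to 0.00252 in TG and 0.00269 to 0.00485 in WT (log2 difference -0.73, SE 0.213, exact p = 0.0286, adjusted p = 0.0357). With 1 FPKM added to both terms the difference was -0.33 (exact p = 0.114), so this call depends on the low level of Lmf1. The Angptl4 to Lpl ratio was 0.340 to 0.595 in TG and 0.282 to 0.630 in WT, ranges that overlapped throughout (log2 difference -0.14, SE 0.313, exact p = 0.657, adjusted p = 0.657).

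Both receptors stood at like levels in WT and far apart in TG. The Vldlr to Lrp1 ratio was 0.112, 0.125, 0.152 and 0.154 in TG 1, 2, 3 and 5 and 1.27, 0.834, 1.17 and 0.671 in WT 1, 2, 3 and 5 (log2 difference -2.83, SE 0.243, exact p = 0.0286, adjusted p = 0.0357). In WT their FPKM ranges overlapped, at means of 10.3 FPKM for Vldlr and 10.7 FPKM for Lrp1, whereas in TG Vldlr had a mean of 7.03 FPKM and Lrp1 one of 52.7 FPKM.

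**Figure D4:**
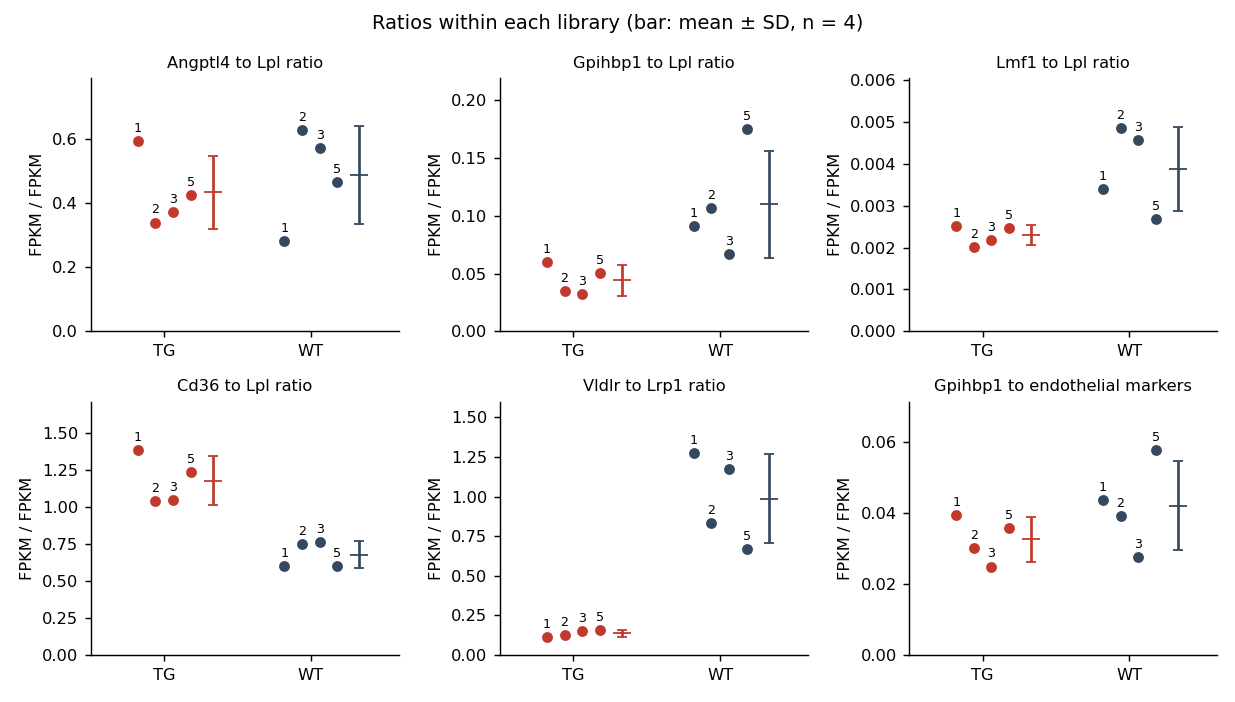
FPKM ratios within each library (vertical axes, linear from 0) for 5 pairs of members and for Gpihbp1 over the summed endothelial markers, in 4 TG and 4 WT libraries with the mean ± SD. The groups are apart for Gpihbp1, Lmf1 and Cd36 over Lpl and for Vldlr over Lrp1, and overlap for Angptl4 over Lpl and for Gpihbp1 over the 19 endothelial markers, where leaving out Rgcc moves the TG ratios above the WT ratios.

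By mean FPKM the order in TG was Cd36, Lpl, Angptl4, Lrp1, Gpihbp1, Vldlr and Lmf1, with overlapping ranges only between the neighbours Cd36 and Lpl. In WT it was Lpl, Cd36, Angptl4, Gpihbp1, Lrp1, Vldlr and Lmf1, with overlap only between Lrp1 and Vldlr. These levels depend on the gene lengths in the table. For Lpl the length is 10478 bases, equal to the merged exons of all 5 of its GENCODE M21 transcripts, whereas the longest coding transcript has 4115 bases. For Lmf1 the table has 13471 bases and the longest coding transcript 2003. Per length of the longest coding transcript, Lpl would stand at 1184 ± 153 in TG and 1431 ± 182 in WT, and Cd36 at 571 ± 42.5 in TG and 399 ± 39.3 in WT, so Lpl would rank above Cd36 in both groups. Ratios of FPKM between the groups do not depend on length, but changes of log2(FPKM + 1) do where a gene is low. Per longest coding transcript the log2 change of Lmf1 would be -0.91, against -0.60 as deposited, that of Gpihbp1 -1.52, against -1.51, and that of Lrp1 2.21, against 2.20.

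Profiles over the 8 libraries were compared by the root mean square difference of centred log2(FPKM + 1), among 9626 protein-coding genes. Nearest to Gpihbp1 were Jam2, a junctional adhesion molecule of endothelium (0.0846), and Mmrn2, an endothelial matrix protein (0.117), with log2 changes of -1.62 and -1.69. Nearest to Lrp1 were Mxra8, a matrix-remodelling associated protein (0.0957), and Htra3, a secreted serine protease (0.154), with log2 changes of 2.11 and 2.26. Nearest to Cd36 were Mob1a, an adaptor of Hippo signalling (0.0289), and Mlec, a carbohydrate-binding protein of the endoplasmic reticulum (0.0534). Nearest to Lmf1 were Pink1, a mitochondrial kinase (0.0301), and Msi2, an RNA-binding protein (0.0412). With 1 FPKM added, the change of Lmf1, a low gene, comes out too small in this comparison. Mean FPKM was 1.06 in TG and 2.15 in WT for Lmf1, which is 49.2% of its WT level. It was 80.1 and 122 for Pink1, and 2.87 and 4.77 for Msi2. These 2 matches therefore do not show equal ratios of TG to WT. Nearest to Vldlr were Ptcd3, of the mitochondrial ribosome (0.0759), and Exoc8, an exocyst subunit (0.0805).

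Of 16 other genes that make, move or cleave LPL, all tested, 7 rose, 1 fell and 8 did not pass; their median log2 change was 0.24, beside 0.01 for all genes, of which 22.3% rose and 21.8% fell. Pdia4, a protein disulfide isomerase of the endoplasmic reticulum, stood at 45.9 ± 3.92 FPKM in TG and 11.0 ± 1.55 FPKM in WT (SD, n = 4 each) and rose by 1.97. The chaperone gene Calr rose by 0.96, the sorting receptor gene Sort1 by 1.06, and Pcsk6, a proprotein convertase that cleaves ANGPTL proteins, by 1.05. The member that fell was Sdc4, a cell surface heparan sulfate proteoglycan (log2 change -1.70), named after its value was seen. Without TG 5 and WT 2, 4 rose and 1 fell.

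Among other activators and inhibitors of LPL, Angptl8, an insulin-induced member of the inhibitor family, stood at 12.0 ± 2.25 FPKM in TG and 25.5 ± 9.09 FPKM in WT and fell by 0.98 (limma adjusted p = 0.00587). Apoe, a ligand of LRP1 and VLDLR on lipoprotein remnants, stood at 2347 ± 125 FPKM in TG and 1303 ± 322 FPKM in WT (SD, n = 4 each) and rose by 0.89 (limma adjusted p = 0.00623). Apoc1 and Apoc3, whose proteins inhibit LPL, did not pass, with log2 changes of 0.45 and -0.14, and Apoc1 was called higher in 4 of 22 alternatives. The activator genes Apoc2 and Apoa5 are listed at 0 in all 8 libraries. Of the 7 listed genes 4 were tested, with 1 higher, 1 lower and 2 not passing (median log2 change 0.15).

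Other lipoprotein receptors and their adaptors were higher more often than lower, with 8 of 12 risen, 1 fallen and 3 not passing (median log2 change 0.42). Lrp3 stood at 10.3 ± 1.45 FPKM in TG and 2.82 ± 0.569 FPKM in WT (SD, n = 4 each) and rose by 1.57. The Wnt co-receptor genes Lrp6 and Lrp5 rose by 1.02 and 0.84, and Lrp11 by 0.64. The member that fell was Sorcs2, a sorting receptor (log2 change -0.59). It stood at 0.159 to 0.310 FPKM in TG and 0.557 to 1.22 FPKM in WT. Because it reached the filter of 0.5 FPKM only in WT, it could hardly have come out higher in TG. Sorcs2 was named after its value was seen. Without TG 5 and WT 2, 6 rose and 1 fell.

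Other fatty acid transport genes split, with 2 of 7 tested risen, 3 fallen and 2 not passing (median log2 change -0.16). Fabp3, the heart-type fatty acid carrier, stood at 21.4 ± 8.71 FPKM in TG and 1713 ± 663 FPKM in WT (SD, n = 4 each) and fell by 6.27. Slc27a2, a fatty acid transport protein with acyl-CoA synthetase activity, stood at 1.47 ± 0.813 FPKM in TG and 38.3 ± 3.97 FPKM in WT and fell by 4.04. Its relative Slc27a1 stood at 51.7 ± 9.64 FPKM in TG and 22.5 ± 4.16 FPKM in WT and rose by 1.17. Fabp4, the adipocyte carrier, stood at 4361 ± 904 FPKM in TG and 2675 ± 331 FPKM in WT and rose by 0.69, a call lost without TG 2, with no filter, and without TG 5 and WT 2 (adjusted p up to 0.188 over its alternatives). Got2 fell by 1.41, while Fabp5 and Slc27a4 had log2 changes of 0.47 and -0.16 and did not pass. Of the 7, 1 rose and 3 fell without TG 5 and WT 2.

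In the list of CD36 trafficking, caveolae and palmitoylation, 6 of 13 rose, 3 fell and 4 did not pass (median log2 change 0.32). The caveola genes Cavin2, Cav2 and Ehd2 rose by 1.56, 1.08 and 0.90. Cavin2 stood at 217 ± 21.7 FPKM in TG and 73.7 ± 13.3 FPKM in WT (SD, n = 4 each). Cav1, the main caveolin, had a log2 change of 0.30 that did not pass (limma adjusted p = 0.0848), and it was called higher in 7 of 22 alternatives. Fyn, a kinase that CD36 signals through, fell by 1.22, and Thbs1, a secreted CD36 ligand, by 2.57. Cav1 and Thbs1 were named after their values were seen. Of the 13, 4 rose and 2 fell without TG 5 and WT 2.

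The PPAR and RXR receptors control many LPL pathway genes, and they changed in both directions. Of 6, 2 rose, 3 fell and 1 did not pass (median log2 change -0.36). Ppara, the receptor of fatty acid oxidation genes, stood at 1.67 ± 0.376 FPKM in TG and 6.65 ± 0.351 FPKM in WT (SD, n = 4 each) and fell by 1.53. Rxra stood at 29.2 ± 1.09 FPKM in TG and 9.05 ± 1.07 FPKM in WT and rose by 1.59, while Rxrb and Rxrg fell by 0.71 and 0.98. Pparg, the adipocyte receptor, stood at 49.3 ± 4.05 FPKM in TG and 50.5 ± 10.6 FPKM in WT (limma adjusted p = 0.947). On division by all recovered reads it had a log2 change of 0.41 and was called higher. Ppard rose by 0.44, a call lost in 6 of 21 alternatives, among them no filter and leaving out TG 1, TG 2, TG 3 or WT 1 (adjusted p up to 0.0826 over its alternatives).

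**Figure D5:**
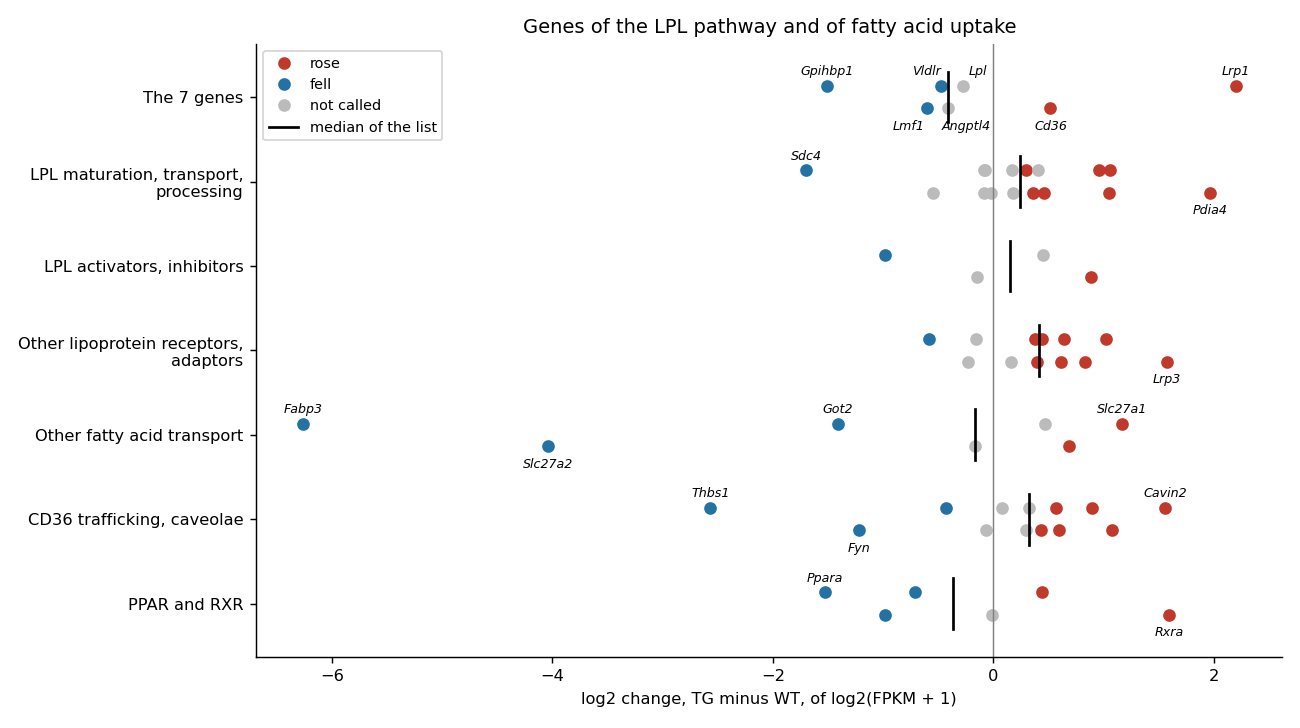
Log2 change (horizontal axis, TG minus WT) of every tested gene of the 7 members and 6 related lists, red where it rose, blue where it fell and grey where it did not pass, with a black bar at each median. Lrp1 at 2.20 is the highest of all genes drawn and Fabp3 at -6.27 the lowest.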

How the data were processed

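RNA was sequenced from brown adipose tissue of 4 TG and 4 WT mice. Per the labels' protocols, RNA was extracted with TRIzol and libraries were made with an Illumina TruSeq kit. The submitters' processing notes name HISAT2 2.0.5, featureCounts 1.5.0-p3, bcl2fastq and mm10. The sources used here do not state the strand setting, the annotation release or how libraries were scaled. The authors deposited FPKM for 54532 genes with gene lengths. FPKM times length was a whole multiple of 1 step per library for 100% of values (within 1e-06), so reads were recovered by division. Replicates differed beyond sampling noise, with a mean chi-square per gene of 20.9 to 92.5 between libraries of a group.

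Genes that reached 0.5 FPKM in 4 or more libraries were tested with limma 3.58.1 (R 4.3.3, eBayes with trend, two-sided) on log2(FPKM + 1), with Benjamini-Hochberg adjustment over all 12508 genes. The main test used no count model, since the deposited unit is FPKM, and voom on the recovered reads was run among the alternatives. Ratios within a library were tested with exact permutation tests (scipy 1.17.1). The procedure was tested on simulated data. The members, lists and alternatives were chosen with earlier results of these data known. Named are all 7 members, the 4 lowest-p genes of each pathway list, up to 3 genes of a marker list, every tested gene of 3 short lists, and the 2 genes nearest in profile to each called member, besides those said to be named after their values were seen. Added after seeing the data were voom with the reads outside the mitochondrial chromosome as library size, list counts under 3 alternatives, and 3 other summaries of the endothelial markers. The limma p-values set a difference of group means against the spread between libraries of a group. The permutation p-values set it against the other assignments of labels. Figures were drawn with matplotlib 3.10.9.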

Additional observations from a re-analysis of the deposited data

Results flagged for a closer look

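A total of 3 values stood apart from the other libraries of their group, by Dixon's test on gaps, among 46 groups of 4 examined, where chance flags about 1 in 20. Angptl4 in TG 1, at 247 FPKM, lay above the 175 to 187 FPKM of the other TG libraries (gap 0.835 of the range). The summed skeletal muscle markers in TG 5, at 1379 FPKM, lay above the 116 to 226 FPKM of the other TG libraries (gap 0.913). Those in WT 2, at 2449.8 FPKM, lay above the 11.5 to 222 FPKM of the other WT libraries (gap 0.913).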

How the results depend on the processing

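The calls of Lrp1, Gpihbp1 and Lmf1 held in every alternative in which they could be tested; Lmf1 was removed by a filter of 5 FPKM. Vldlr was no longer called with no filter (log2 change -0.47, adjusted p = 0.0501), with division by all recovered reads (-0.091), with voom on total reads (-0.10) and without WT 2 and TG 5 (-0.48). Leaving out 1 library at a time gave -0.61 to -0.42 for Vldlr and -0.58 to -0.31 for Angptl4. Cd36 was no longer called without WT 2 and TG 5 (0.50). Quantile normalisation turned Lpl to 0.51, called higher, and Rgcc to 0.095; Pparg turned to 0.41 with division by all recovered reads and to 0.41 with voom on total reads. With a filter of 5 FPKM, 3148 genes were called, among 5700 tested. With 1 added to both terms, the Lmf1 to Lpl ratio had a log2 difference of -0.33 (exact permutation p = 0.114), since Lmf1 is near 1 FPKM. The Gpihbp1 to endothelial marker ratio turned to 0.60 without Rgcc and to 0.57 without Rgcc and Aqp1 (exact permutation p = 0.0286 each), since Rgcc makes up most of the sum in TG. In the other cases the cause was not tested. With the replicate number as a block, 4847 genes were called, and of the members only Vldlr was lost (-0.47, adjusted p = 0.0549). Same-numbered libraries did not deviate together (correlations -0.24 to 0.04, and 0 of 8 libraries were closest to their own number). The highest correlation, 0.39, was between TG 5 and WT 2, the libraries with high muscle markers. Whether the numbers mark paired mice or a shared batch cannot be told from such correlations. Ratios without 1 library were not tested, since 4 against 3 cannot go below p = 0.0571 in an exact test. Ratios by same-numbered pairs were run but are not read as tests, since 4 pairs cannot go below 0.125. Lmf1 had the fewest reads of the members, 237 to 461 per library.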
